A study of Mus musculus with 24 samples.

Results

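The 35 genes described here encode the chaperones, disulfide isomerases, degradation factors, translocon subunits and stress sensors of the endoplasmic reticulum (ER). They were listed by symbol for their known roles, by a rule that uses no measured value although earlier results of these data were known, and all 35 were found among the 78298 gene IDs of the count table. By role they are 12 chaperones and co-chaperones, 5 disulfide isomerases, 11 genes of ER-associated degradation, 4 genes of the translocon and 3 sensors. RNA sequencing counted transcripts in liver tissue. It covered 18 mice of a steatohepatitis model, a liver that holds fat and is inflamed, and 6 normal control mice. Each numbered library was taken as 1 mouse. Neither group carries a stated genotype or treatment beyond these names, and the labels leave the diet or agent behind the model, its duration, the strain, sex, age and time of day unstated. Library totals lay between 32.2 and 58.4 M counts in model mice and between 31.6 and 49.5 M in control mice, so 3 counts stood for 0.0514 to 0.0949 CPM, the count scaled to a fixed library total. Even Derl3, the rarest of the 35 transcripts, had at least 19 counts in every library.

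The ER folds nearly all proteins that a cell secretes, and the hepatocyte, which releases albumin, lipoproteins and clotting factors, carries a large amount of it. The chaperone BiP, encoded by Hspa5, binds unfolded chains in the ER lumen, disulfide isomerases pair their cysteines, and the calnexin and calreticulin cycle folds those that carry sugars. Chains that fail to fold are carried back to the cytosol by the Sel1l and Syvn1 complex and degraded by the proteasome. When unfolded chains build up, the sensors IRE1 (Ern1), ATF6 and PERK are released from BiP. IRE1 splices Xbp1 mRNA into a form that encodes an active factor, ATF6 is cut into a factor, and PERK slows translation and induces ATF4. The factors made from spliced Xbp1 mRNA and from ATF6 bind short elements in the promoters of chaperone and degradation genes. The best known is the ER stress response element (ERSE).

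The promoters of several of these genes show that element directly. The RefSeq promoter table (GRCm38.p6, from 250 bases before to 50 bases after each start) held windows for 28 of the 35 genes. Searched on both strands, the ERSE, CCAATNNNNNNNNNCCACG, was found in 9 of the 31 windows of these 28 genes, and in 39 of all 32851 windows in the table, or 0.119%. The related ERSE-II, ATTGGNCCACG, was found in the windows of Herpud1 and Dnajb11, against 12 of all windows (0.0365%). Both elements end in CCACG, which alone stood in 25 of the 31 windows and in 32.8% of all windows. The element TGACGTGG, known as UPRE, was in none of the 31 windows and in 0.676% of all. A match describes letters in this window and is not evidence of binding. The matched sites are shown because several of the genes share them and the choice of genes did not use them. They are written from CCAAT, or for ERSE-II from ATTGG, to CCACG, with the fixed letters of the element in capitals and the free bases in lower case.
Hspa5: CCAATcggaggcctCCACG
Hsp90b1, first site: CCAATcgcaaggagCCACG
Hsp90b1, second site: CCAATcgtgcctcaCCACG
Calr: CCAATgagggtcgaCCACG
Canx: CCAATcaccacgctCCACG
Dnajc3: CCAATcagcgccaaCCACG
Creld2: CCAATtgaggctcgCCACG
Pdia6: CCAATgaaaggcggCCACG
Syvn1: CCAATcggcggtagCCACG
Derl3: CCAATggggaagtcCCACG
Herpud1, ERSE-II: ATTGGgCCACG
Dnajb11, ERSE-II: ATTGGcCCACG

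The site of Hspa5 began 65 bases before the start, that of Dnajc3 105 bases before it and that of Herpud1 52 bases before it. For these 3 genes the 250 bases before the start are shown on the plus strand, which is the gene's strand, with the element in capitals. They were picked to show a BiP promoter beside a co-chaperone and a degradation gene whose transcripts were lower in model livers under every setting described further on. The stretches are chr2:34771840-34772089 for Hspa5, chr14:118937682-118937931 for Dnajc3 and chr8:94386179-94386428 for Herpud1, all in GRCm38.p6.
Hspa5: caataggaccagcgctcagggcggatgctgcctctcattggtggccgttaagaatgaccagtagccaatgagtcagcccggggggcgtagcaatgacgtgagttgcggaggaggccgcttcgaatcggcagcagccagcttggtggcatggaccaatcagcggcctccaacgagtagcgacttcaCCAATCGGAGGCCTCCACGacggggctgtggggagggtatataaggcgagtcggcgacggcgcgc
Dnajc3: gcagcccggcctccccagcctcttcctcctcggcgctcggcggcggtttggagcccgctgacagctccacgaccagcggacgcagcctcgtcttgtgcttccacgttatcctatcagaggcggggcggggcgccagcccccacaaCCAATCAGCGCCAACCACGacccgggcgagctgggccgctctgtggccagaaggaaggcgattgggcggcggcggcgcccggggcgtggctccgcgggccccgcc
Herpud1: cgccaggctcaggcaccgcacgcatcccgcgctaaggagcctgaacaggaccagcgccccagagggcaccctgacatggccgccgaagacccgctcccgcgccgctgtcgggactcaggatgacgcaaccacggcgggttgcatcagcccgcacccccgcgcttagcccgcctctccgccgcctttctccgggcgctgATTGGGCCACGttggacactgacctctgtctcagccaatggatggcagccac

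All 35 genes passed the expression filter, and 25 of them were lower in model livers. None was higher, and 10 did not pass the test (edgeR's quasi-likelihood test over all 17456 genes tested, called where the p-value after Benjamini-Hochberg adjustment was below 0.05). Among all genes tested 28.8% were lower, 31.2% were higher and 60% were called in either direction. The estimates of all 35 genes lay below 0 on the log2 scale, from -0.99 to -0.05, with a median of -0.35 against 0.01 over all genes, although with library totals alone in place of TMM scaling only 20 of the 35 lay below 0. At an unadjusted p below 0.05, 28 were lower and 0 higher, against 30.8% of all genes lower and 32.9% higher. In 6 of them, Canx, Dnajc3, Pdia5, Sel1l, Os9 and Ssr2, every model mouse lay below every control, as it did in 6.02% of all genes tested. Every CPM range given here, and whether the groups overlap in it, rests on TMM scaling. The overlap of the groups with library totals alone was not examined. The summed level of the 35 genes was 5159 to 7505 CPM in model mice, with a median of 6182 CPM, and 7084 to 8446 CPM in control mice, with a median of 7832 CPM. Per kilobase of summed exon length, the isomerase P4hb had the highest mean level, at 495 CPM per kb in model mice and 549 in control mice, followed by Calr at 224 and 271 CPM per kb. Derl3 had the lowest, at 0.654 CPM per kb in model mice and 1.09 in control mice.

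**Figure D1:**
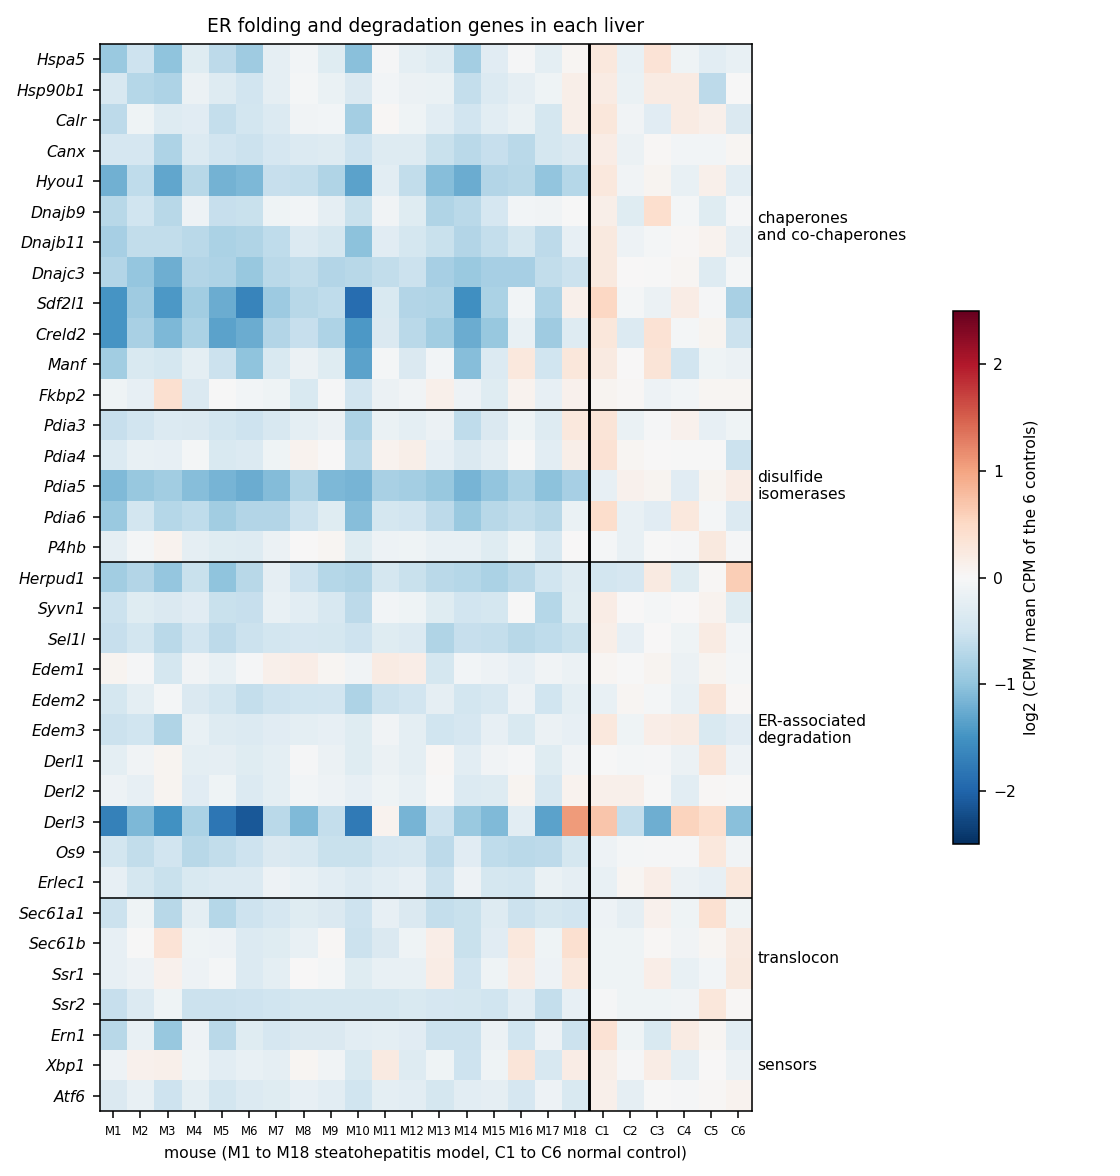
Level of each of the 35 genes (rows, grouped by role) in each mouse (columns, model mice M1 to M18 on the left and control mice C1 to C6 on the right), as the log2 ratio of its CPM to the mean CPM of the control mice; the colour scale runs from lower to higher than that mean. Rows such as Pdia5, Dnajc3 and Sel1l are low in all 18 model mice, whereas Hspa5, Sdf2l1 and Manf vary widely among them, and control 6 is low for Sdf2l1 and high for Herpud1.

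Several other measures moved with the groups. Summed hepatocyte markers were lower in model livers, at 74178 to 135725 CPM against 141570.4 to 207356 CPM in control livers, and 8 of the 10 markers fell. All 10 macrophage markers rose, with a sum of 269 to 1227 CPM in model livers and 55.8 to 128 CPM in control livers, where Itgam was at or near 0. All 10 stellate cell markers rose, with a sum of 176 to 477 CPM in model livers and 63.5 to 159 CPM in control livers. Endothelial markers rose in 7 of 8 cases, with a sum of 65.0 to 233 CPM in model livers and 47.7 to 93.9 CPM in control livers. Of 8 cholangiocyte markers 2 rose, with a sum of 54.7 to 454 CPM in model livers and 61.8 to 97.9 CPM in control livers. Of the 7 plasma cell markers tested, 4 rose and 1 fell, while their sum, mostly Sdc1, which hepatocytes also make, was 222 to 335 CPM in model livers and 334 to 506 CPM in control livers. Markers of pancreatic acinar cells, which carry much ER, summed to 7.78 to 14.5 CPM in model livers and 8.3 to 12.2 CPM in control livers. That sum was mostly Cela1, at a mean of 10.6 CPM in model livers and 9.35 CPM in control livers, with Amy2a5 at 0 in all 24 libraries. Of the 12 acinar markers 2 were tested, of which Cela2a fell and Cela1 was not called. In bulk tissue, fewer cells of a type and less RNA per cell cannot be told apart, and this holds for every result on the 35 genes. The part of the markers in those results was not tested.

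Clock genes also differed between the groups. An index of the clock, the mean log2 CPM of Arntl (Bmal1), Clock, Npas2 and Cry1 minus that of 8 genes of the opposite limb, was -3.84 to -2.75 in model mice and -1.43 to 0.65 in control mice 1 to 5. Control 6 stood apart from its group at -4.0. Of the 4 genes of the first limb 3 fell, and of the 8 genes of the opposite limb 5 rose. Because the clock and feeding move many ER genes in mouse liver, values with the index as a covariate and, as an alternative chosen after the data were seen, with control 6 as the only control are given beside the results. The lone control is assumed there to vary as the model mice do. Over controls 1 to 5, the clock index and the group cannot be told apart. With the index as a covariate 40.6% of all genes were called, and with control 6 alone 23.1%. Scaling matters as well, since TMM factors, which correct for a few abundant transcripts, were 0.99 to 1.16 in model libraries and 0.813 to 0.892 in control libraries. Scaling by library totals alone moved the median of all genes to 0.34 on the log2 scale, and 85.7% of calls were then higher in model livers, against 52.0% with TMM. The median of the 35 genes was then -0.02, which lay 0.36 below that of all genes, against 0.36 with TMM. A change of scaling shifts all genes by nearly the same amount, so the equal gaps are no separate support.

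Among the 12 chaperones and co-chaperones, 10 were lower in model livers, with a median log2 fold change of -0.43 over the 12. Hspa5 (ENSMUSG00000026864, chr2:34661982-34667559 in GRCm39, plus strand), the gene for BiP, lay between 344 and 735 CPM in model livers, with a median of 578 CPM, and between 596 and 905 CPM in control livers, with a median of 647 CPM. The groups overlapped, and 11 of the 18 model mice lay below every control. Its mean was 542 ± 128 CPM in model livers (SD, n = 18) and 714 ± 133 CPM in control livers (SD, n = 6), a log2 fold change of -0.40 (SE 0.146, edgeR adjusted p = 0.0215). That call was lost without control 1 or without control 3 (adjusted p of at most 0.081), with the clock index as a covariate (-0.27, adjusted p = 0.393), against control 6 alone (-0.20, adjusted p = 0.703) and with library totals alone (-0.06, adjusted p = 0.746). It was lost as well with upper-quartile factors and with no expression filter.

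Hyou1, a large chaperone that also exchanges the nucleotide of BiP, showed the largest decrease of the 12. It reached 51.9 to 109 CPM in model livers, with a median of 78.1 CPM, and 109 to 158 CPM in control livers, with a median of 130.4 CPM. In 17 of the 18 model mice the value was below every control, of which control 6 was the lowest. Means were 73.2 ± 15.7 CPM in model livers (SD, n = 18) and 131 ± 18.8 CPM in control livers (SD, n = 6), with a log2 fold change of -0.84 (SE 0.123, edgeR adjusted p = 1.89e-06). With the clock index as a covariate it was -0.62 (adjusted p = 0.0132), and the call was lost against control 6 alone (-0.56, adjusted p = 0.151). Sdf2l1, a partner of the co-chaperone Dnajb11, ran from 4.89 to 19.8 CPM in model livers, with a median of 10.2 CPM, and from 10.4 to 26.2 CPM in control livers, with a median of 17.8 CPM. Control 6 alone held the low value of 10.4 CPM, and the other 5 controls began at 16.5 CPM. The log2 fold change of Sdf2l1 was -0.83 (SE 0.217, edgeR adjusted p = 0.00196), a call lost with the clock index as a covariate (-0.25, adjusted p = 0.616), against control 6 alone (-0.01, adjusted p = 0.988) and with library totals alone (-0.50, adjusted p = 0.063). Creld2, an ER protein that acts on disulfides of secreted proteins, was at 14.9 to 36.4 CPM in model livers and 28.7 to 53.4 CPM in control livers. Its log2 fold change was -0.83 (SE 0.157, edgeR adjusted p = 6.68e-05), and this call too was lost with the clock index as a covariate (adjusted p = 0.0815) and against control 6 alone (0.602).

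The 3 J-domain co-chaperones of BiP among the 35 genes were called lower. Among the further genes, Dnajc1 (log2 fold change -0.38, edgeR adjusted p = 5.87e-07) and Dnajc25 (-0.19, edgeR adjusted p = 0.0122) were lower too. With library totals alone Dnajc1 was at -0.05, and Dnajc25 was called higher (0.14, adjusted p = 0.0382). Dnajc10 was called higher (log2 fold change 0.25, edgeR adjusted p = 0.00498). That call was lost with the clock index as a covariate (0.15, adjusted p = 0.338), and the value was 0.14 against control 6 alone. Dnajc3, also known as p58IPK, lay between 107 and 172 CPM in model livers, with a median of 151 CPM, and between 200.1 and 295 CPM in control livers, with a median of 250.5 CPM. The groups did not overlap. Means were 148 ± 16.7 CPM in model livers (SD, n = 18) and 249.6 ± 30.5 CPM in control livers (SD, n = 6), a log2 fold change of -0.76 (SE 0.0782, edgeR adjusted p = 8.46e-09). This difference passed with the clock index as a covariate (-0.64, adjusted p = 0.000206), against control 6 alone (-0.71, adjusted p = 0.00371) and with library totals alone (-0.43, adjusted p = 7e-05). Dnajb11, which hands unfolded chains to BiP, was at 54.3 to 96.6 CPM in model livers and 95.0 to 131 CPM in control livers, with 17 model mice below every control. The call of Dnajb11 (-0.58, edgeR adjusted p = 3.38e-06) was lost against control 6 alone (-0.34, adjusted p = 0.226). Dnajb9, which represses IRE1 and speeds degradation, was at 49.0 to 81.8 CPM in model livers and 66.3 to 110.1 CPM in control livers, with a log2 fold change of -0.34 (edgeR adjusted p = 0.0138). Its call was lost without control 3 (adjusted p = 0.0838), with the clock index as a covariate (-0.35, adjusted p = 0.147), against control 6 alone (-0.30, adjusted p = 0.4) and with library totals alone (-0.01, adjusted p = 0.947).

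The chaperones of the sugar cycle parted in steadiness. Canx, the membrane-bound calnexin, lay between 194 and 266 CPM in model livers, with a median of 245 CPM, and between 299 and 377 CPM in control livers, with a median of 326 CPM. No model mouse reached the lowest control, and its log2 fold change of -0.47 (edgeR adjusted p = 1.07e-06) was -0.48 with the clock index as a covariate and -0.51 against control 6 alone, both still called, although not with library totals alone (-0.14, adjusted p = 0.0942). Its soluble relative Calr was at 432 to 863 CPM in model livers and 607 to 955 CPM in control livers, with 6 model mice below every control. Calr had a log2 fold change of -0.27 (edgeR adjusted p = 0.042), which was 0.00 with the clock index as a covariate and lost its call without control 1, 4 or 5 or without model mouse 1, 5, 6, 7, 14 or 17. Hsp90b1, the ER form of HSP90, was at 242 to 457 CPM in model livers and 262 to 479.7 CPM in control livers. Its log2 fold change of -0.27 (edgeR adjusted p = 0.0472) missed the threshold in 13 of the 24 fits that left out 1 library. Those libraries were controls 1, 3, 4 and 6 and model mice 1, 2, 3, 5, 6, 7, 10, 14 and 15. The Hsp90b1 call was also lost with the clock index as a covariate (-0.23, adjusted p = 0.352), against control 6 alone (-0.26, adjusted p = 0.447) and with library totals alone (0.06). Manf and Fkbp2 did not pass. Manf, which binds BiP and is also secreted, was at 35.5 to 110.5 CPM in model livers and 65.2 to 113 CPM in control livers (log2 fold change -0.35, edgeR adjusted p = 0.0782), and passed without control 4, model mouse 16 or model mouse 18. Fkbp2, a prolyl isomerase, had a log2 fold change of -0.09 (edgeR adjusted p = 0.38).

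**Figure D2:**
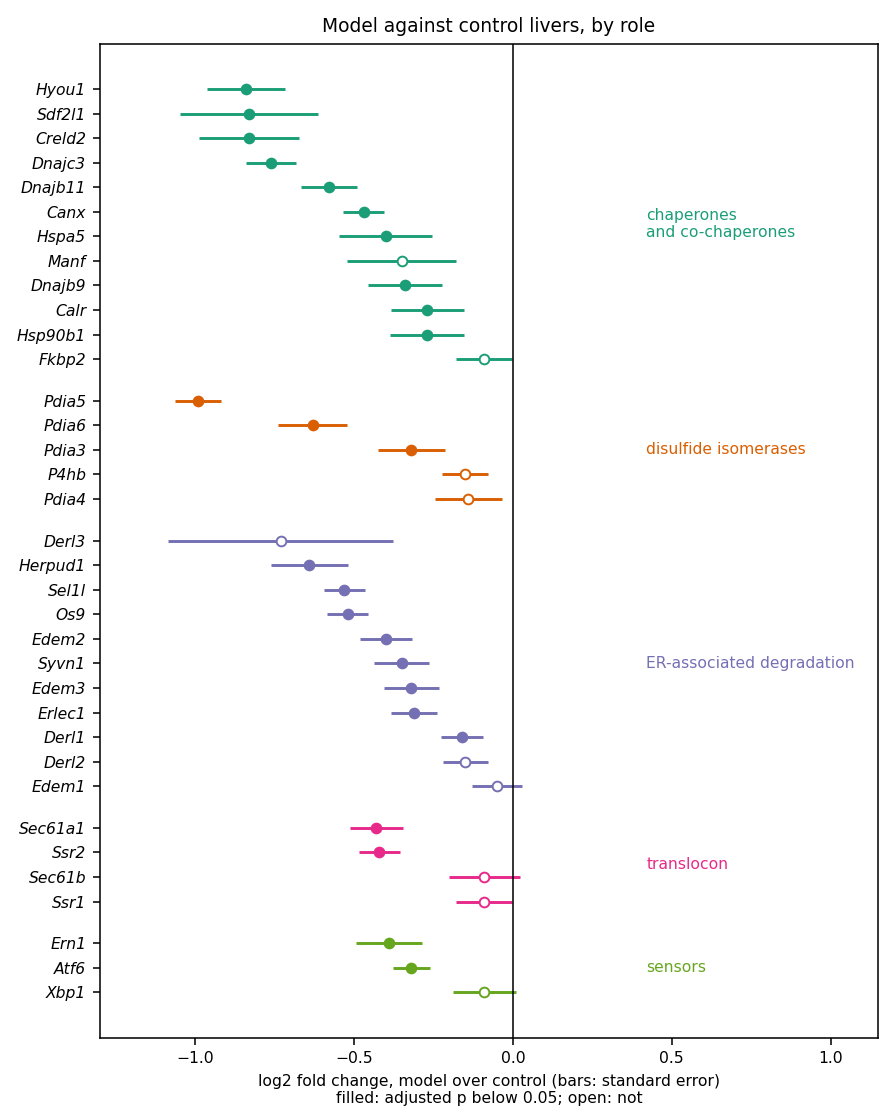
Log2 fold change of each of the 35 genes, model over control, with its standard error, by role (edgeR, TMM scaling, 18 model and 6 control mice); filled points passed an adjusted p of 0.05 and open points did not. Every point lies below 0, from -0.99 for Pdia5 to -0.05 for Edem1 (with library totals alone 20 of the 35 do), and the 25 filled points occur in all 5 roles.

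Of the 5 disulfide isomerases, 3 were lower in model livers, with a median log2 fold change of -0.32 over the 5. Pdia5 (chr16:35217682-35311243 in GRCm39, minus strand), an isomerase that also acts on ATF6, had the lowest log2 fold change of the 35 genes in the fit with all mice and TMM scaling, while against control 6 alone Herpud1 lay lower. It lay between 39.3 and 54.9 CPM in model livers, with a median of 45.8 CPM, and between 75.5 and 105 CPM in control livers, with a median of 97.4 CPM. The groups were far apart, and control 6 was the highest control. Means were 46.6 ± 4.85 CPM in model livers (SD, n = 18) and 92.5 ± 11.8 CPM in control livers (SD, n = 6), a log2 fold change of -0.99 (SE 0.0716, edgeR adjusted p = 2.16e-11). The value was -1.12 (adjusted p = 4e-08) with the clock index as a covariate, -1.17 (adjusted p = 1.02e-05) against control 6 alone and -0.65 (adjusted p = 3.15e-08) with library totals alone.

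Pdia6, which pairs with BiP and also dampens IRE1, ran from 110.4 to 205 CPM in model livers, with a median of 145 CPM, and from 181 to 311 CPM in control livers, with a median of 213 CPM. In 16 of 18 model mice it was below every control. Means were 149 ± 23.6 CPM in model livers (SD, n = 18) and 231 ± 51.6 CPM in control livers (SD, n = 6), with a log2 fold change of -0.63 (SE 0.108, edgeR adjusted p = 1.71e-05). The call of Pdia6 was lost with the clock index as a covariate (-0.35, adjusted p = 0.109) and against control 6 alone (-0.28, adjusted p = 0.384). Pdia3, the partner of calnexin and calreticulin, was at 289 to 594 CPM in model livers and 430.1 to 619.6 CPM in control livers (log2 fold change -0.32, edgeR adjusted p = 0.0113), a call that did not pass without control 1 (adjusted p = 0.0612), with the clock index as a covariate (-0.22, adjusted p = 0.33), against control 6 alone (-0.19, adjusted p = 0.602) or with library totals alone (0.01, adjusted p = 0.932). P4hb, the most abundant isomerase and a subunit of prolyl hydroxylase and of the lipid transfer protein MTP, was at 1186 to 1662 CPM in model livers and 1384 to 1864 CPM in control livers. It did not pass the test (log2 fold change -0.15, edgeR adjusted p = 0.0768). It was called lower without control 2, model mouse 3 or model mouse 9 and by DESeq2, and called higher with library totals alone (0.18, adjusted p = 0.0288). Pdia4 did not pass either, at 108 to 191 CPM in model livers and 118 to 222 CPM in control livers, where control 6 held the lowest value and the other 5 controls began at 170.3 CPM. The estimate for Pdia4 was -0.14 with all mice, 0.23 with the clock index as a covariate and 0.41 against control 6 alone, none of them called.

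Of the 11 genes of ER-associated degradation, 8 were lower in model livers, with a median log2 fold change of -0.35 over the 11. Herpud1, which organises the Syvn1 complex, lay between 248 and 429.6 CPM in model livers, with a median of 310.3 CPM, and between 363 and 763 CPM in control livers, with a median of 459 CPM. Below every control were 15 of the 18 model mice, and control 6 was far above the other 5 controls, which ended at 579.8 CPM. Means were 322 ± 47.4 CPM in model livers (SD, n = 18) and 499 ± 154 CPM in control livers (SD, n = 6), a log2 fold change of -0.64 (SE 0.12, edgeR adjusted p = 5.55e-05). With the clock index as a covariate it was -1.12 (adjusted p = 1.51e-06), against control 6 alone -1.24 (adjusted p = 0.000112) and with library totals alone -0.30 (adjusted p = 0.0311).

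Sel1l, the scaffold that holds the ubiquitin ligase Syvn1, was at 94.5 to 129.6 CPM in model livers, with a median of 108 CPM, and at 138 to 182 CPM in control livers, with a median of 156 CPM. Its groups did not overlap. Means were 109.8 ± 9.44 CPM in model livers (SD, n = 18) and 159 ± 16.8 CPM in control livers (SD, n = 6), a log2 fold change of -0.53 (SE 0.0638, edgeR adjusted p = 8.26e-08), which was -0.50 (adjusted p = 0.000512) with the clock index as a covariate and -0.46 (adjusted p = 0.0162) against control 6 alone. Os9, a lectin that brings sugar-bearing chains to Sel1l, did not overlap either, at 183 to 244 CPM in model livers and 271 to 357 CPM in control livers (log2 fold change -0.52, edgeR adjusted p = 1.31e-07). Erlec1, the other lectin of that kind, was at 28.2 to 38.0 CPM in model livers and 35.7 to 50.1 CPM in control livers (log2 fold change -0.31, edgeR adjusted p = 0.000642), with control 6 the highest control, and did not pass with library totals alone (0.02). Syvn1 itself, also known as Hrd1, was at 34.6 to 56.8 CPM in model livers and 46.1 to 65.1 CPM in control livers (log2 fold change -0.35, edgeR adjusted p = 0.00115). Its call was lost with the clock index as a covariate, against control 6 alone, whose 46.1 CPM was the lowest control value, and with library totals alone.

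The mannosidase-like EDEM genes mark misfolded sugar-bearing chains for disposal. Edem2 was at 33.1 to 54.2 CPM in model livers and 49.2 to 69.3 CPM in control livers (log2 fold change -0.40, edgeR adjusted p = 0.000138), a call lost against control 6 alone (-0.41, adjusted p = 0.0864) and with library totals alone (-0.06, adjusted p = 0.577). Edem3 was at 20.5 to 32.2 CPM in model livers and 26.4 to 41.4 CPM in control livers (log2 fold change -0.32, edgeR adjusted p = 0.00257), which was -0.07 with the clock index as a covariate (adjusted p = 0.684), -0.03 against control 6 alone (adjusted p = 0.909) and 0.01 with library totals alone. Edem1, a well-known target of spliced Xbp1, lay at 104 to 164 CPM in model livers, on both sides of the 128 to 149 CPM of control livers (log2 fold change -0.05, edgeR adjusted p = 0.566), and was called higher with library totals alone (0.27, adjusted p = 0.00177). Of the derlins, membrane proteins of the exit channel, only Derl1 passed, at 132 to 171 CPM in model livers and 147 to 202 CPM in control livers (log2 fold change -0.16, edgeR adjusted p = 0.0434). That call of Derl1 was lost without control 1, 2 or 5 or without model mouse 1, 6, 7, 10, 12 or 14, with the clock index as a covariate (-0.14, adjusted p = 0.336) and against control 6 alone (-0.03, adjusted p = 0.921). With library totals alone Derl1 was called higher (0.18, adjusted p = 0.043). Derl2 had a median of 82.8 CPM in model livers and 92.8 CPM in control livers, with overlapping ranges (edgeR adjusted p = 0.0698), and was called lower without control 4 or model mouse 3, 13, 16 or 18, with RLE factors and by DESeq2, but higher with library totals alone (0.18, adjusted p = 0.0349). Derl3 was low everywhere, at 0.498 to 4.57 CPM in model livers and 0.933 to 3.52 CPM in control livers (edgeR adjusted p = 0.0795), and passed without control 3, control 6 or model mouse 18, the last giving a log2 fold change of -0.97.

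Of the 4 translocon genes, 2 were lower in model livers. Sec61a1, the pore through which new chains enter the ER, was at 70.4 to 107 CPM in model livers, with a median of 83.8 CPM, and at 98.4 to 149.7 CPM in control livers, with a median of 107 CPM. In 16 model mice it was below every control. Its means were 85.6 ± 10.0 CPM in model livers (SD, n = 18) and 115 ± 19.1 CPM in control livers (SD, n = 6), with a log2 fold change of -0.43 (SE 0.0833, edgeR adjusted p = 8.21e-05). Ssr2, a subunit of the translocon-associated complex, was at 60.5 to 84.3 CPM in model livers and 84.4 to 110.5 CPM in control livers. The groups met but did not overlap, and the log2 fold change was -0.42 (SE 0.0649, edgeR adjusted p = 3.49e-06). The small pore subunit Sec61b, at 20.0 to 38.7 CPM in model livers and 27.2 to 34.1 CPM in control livers, and Ssr1, a second subunit of the associated complex, at 64.5 to 108 CPM in model livers and 79.2 to 106 CPM in control livers, both had a log2 fold change of -0.09 and did not pass. With library totals alone neither Sec61a1 nor Ssr2 passed, and against control 6 alone Sec61a1 did not (-0.31, adjusted p = 0.173).

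Of the 3 sensors, Atf6 and Ern1 were lower in model livers and Xbp1 did not pass. Atf6 lay between 62.3 and 81.9 CPM in model livers, with a median of 73.6 CPM, and between 76.4 and 97.5 CPM in control livers, with a median of 90.2 CPM. It was below every control in 15 of 18 model mice, and varied little, with an SD of 0.115 in model and 0.123 in control mice on the log2 CPM scale. Means were 72.0 ± 5.66 CPM in model livers (SD, n = 18) and 89.6 ± 7.37 CPM in control livers (SD, n = 6), a log2 fold change of -0.32 (SE 0.0587, edgeR adjusted p = 4.58e-05). The call held with the clock index as a covariate (-0.35, adjusted p = 0.00458) and against control 6 alone (-0.40, adjusted p = 0.0205), but the value was 0.01 with library totals alone.

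Ern1, the gene for IRE1, lay between 25.0 and 44.5 CPM in model livers, with a median of 37.7 CPM, and between 37.0 and 61.7 CPM in control livers, with a median of 47.6 CPM. The groups overlapped, with 8 of 18 model mice below every control. Means were 37.0 ± 5.46 CPM in model livers (SD, n = 18) and 48.3 ± 9.39 CPM in control livers (SD, n = 6), a log2 fold change of -0.39 (SE 0.103, edgeR adjusted p = 0.00224). It was -0.07 (adjusted p = 0.732) with the clock index as a covariate, -0.11 (adjusted p = 0.735) against control 6 alone and -0.06 (adjusted p = 0.7) with library totals alone. Xbp1 spanned 141 to 249 CPM in model livers, with a median of 188 CPM, around the 174 to 231 CPM of control livers, with a median of 201 CPM. Its means were 191 ± 30.6 CPM in model livers (SD, n = 18) and 202 ± 22.3 CPM in control livers (SD, n = 6), a log2 fold change of -0.09 (SE 0.099, edgeR adjusted p = 0.47), and it was called higher with library totals alone (0.25, adjusted p = 0.0463). Gene counts do not separate the spliced form of Xbp1 mRNA, so neither its share nor the activity of any sensor was measured.

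Set side by side, the settings left a smaller group of genes. The clock index as a covariate and control 6 as the only control are not separate checks. Both rest largely on control 6, the only control with an index near those of the model mice. With the clock index as a covariate 13 of the 35 genes were lower and 0 higher, where 18.3% of all genes were lower and 22.3% higher. Against control 6 alone 9 were lower and 0 higher, where 9.75% of all genes were lower and 13.3% higher. Those 9, Canx, Dnajc3, Pdia5, Herpud1, Sel1l, Os9, Erlec1, Ssr2 and Atf6, were all among the 13, which also held Hyou1, Dnajb11, Edem2 and Sec61a1. With library totals alone 9 were lower, against 8.96% of all genes, and 7 were higher, against 53.9% of all genes, namely Fkbp2, P4hb, Edem1, Derl1, Derl2, Ssr1 and Xbp1. Lower in every setting run, leaving out each library included, were 5.07% of all genes and 5 of the 35, a co-chaperone (Dnajc3), an isomerase (Pdia5) and the degradation genes Herpud1, Sel1l and Os9.

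**Figure D3:**
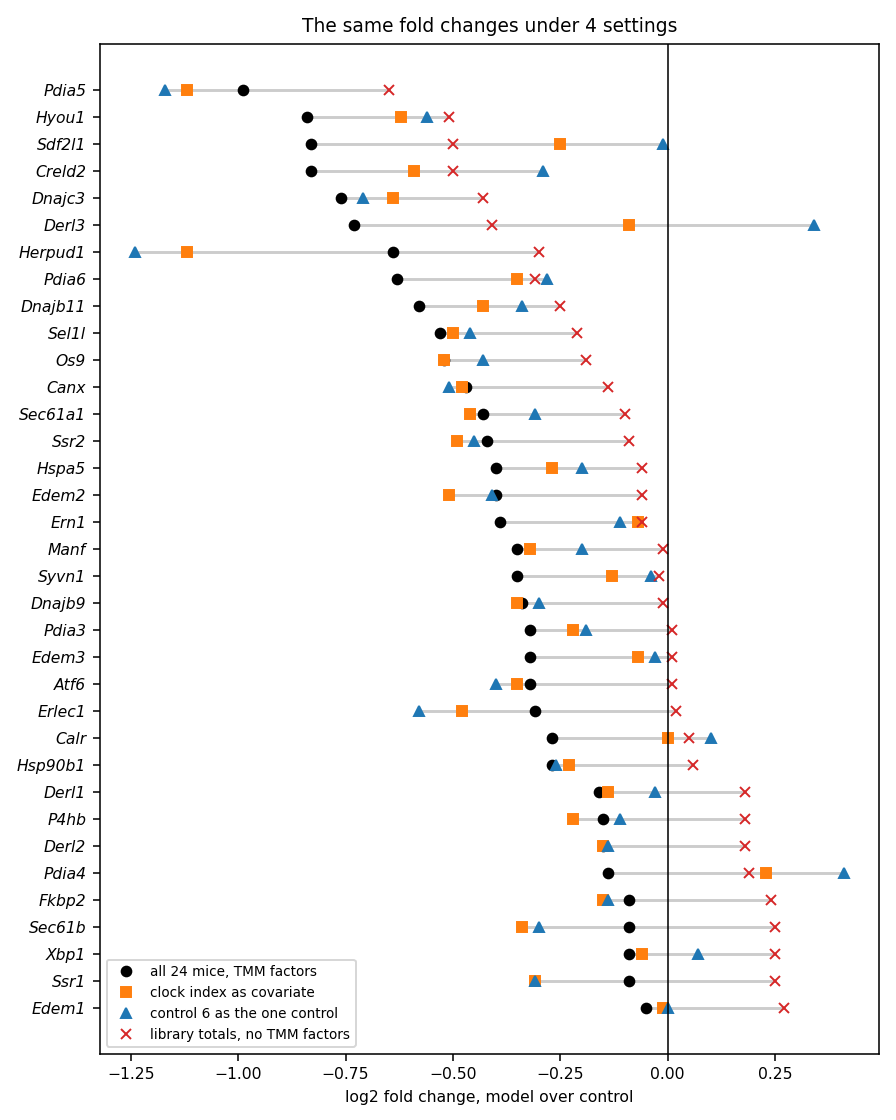
Log2 fold change of the 35 genes, model over control, under 4 settings: TMM scaling with all 24 libraries, the clock index as a covariate, control 6 as the only control, and library totals in place of TMM. Pdia5 and Herpud1 stay far below 0 in all 4, Sdf2l1 moves from -0.83 to -0.01 when control 6 is the only control, and with library totals the values shift upwards together.

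Of 96 further genes of the same pathway that were tested, 62 were lower and 9 higher, beside 28.8% and 31.2% of all genes, and the median log2 fold change was -0.27. With the clock index as a covariate 51 were lower and 3 higher. Against control 6 alone 31 were lower and 3 higher, and with library totals alone 19 were lower and 26 higher. Of all genes, 18.3% were lower and 22.3% higher with the clock index, and 8.96% lower and 53.9% higher with library totals alone. The shares of all genes against control 6 alone are those given above. In the fit with all mice and TMM scaling, 19 of 28 further folding and sugar-trimming genes fell and 2 rose, with a median of -0.36. Ero1lb (Ero1b), an oxidase that recharges disulfide isomerases, averaged 38.8 ± 4.37 CPM in model livers (SD, n = 18) and 88.0 ± 13.0 CPM in control livers (SD, n = 6), with a log2 fold change of -1.18 (edgeR adjusted p = 2.39e-12), and it was called lower under those 3 settings too. Fkbp7, a prolyl isomerase of the ER, went the other way, at 2.79 ± 0.618 CPM in model livers (SD, n = 18) and 1.37 ± 0.376 CPM in control livers (SD, n = 6). Of 22 further degradation genes, 19 fell and 0 rose. Among them the ubiquitin-conjugating enzyme Ube2g2 averaged 25.1 ± 1.91 CPM in model livers (SD, n = 18) and 39.2 ± 5.93 CPM in control livers (SD, n = 6). Nploc4, a partner of the extracting ATPase p97, averaged 82.4 ± 15.3 CPM in model livers (SD, n = 18) and 129 ± 23.0 CPM in control livers (SD, n = 6), and both genes had a log2 fold change of -0.65. Against control 6 alone Nploc4 did not pass (adjusted p = 0.25).

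Of 27 further genes of translocation, signal peptide removal and sugar transfer, 18 fell and 1 rose. Ssr4, a further subunit of the translocon-associated complex, averaged 74.0 ± 8.04 CPM in model livers (SD, n = 18) and 124 ± 12.6 CPM in control livers (SD, n = 6), a log2 fold change of -0.74 (edgeR adjusted p = 1.9e-09). Rpn1, a subunit of the oligosaccharyltransferase, averaged 86.7 ± 8.65 CPM in model livers (SD, n = 18) and 137 ± 17.2 CPM in control livers (SD, n = 6), a log2 fold change of -0.66 (edgeR adjusted p = 1.98e-08). Of 8 further sensors and their proteases, 3 fell and 1 rose. Creb3l3, a liver sensor cut like ATF6, fell to 316 ± 51.6 CPM in model livers (SD, n = 18), against 453 ± 77.7 CPM in control livers (SD, n = 6), a call lost against control 6 alone (adjusted p = 0.172) and with library totals alone (0.0593). Creb3l1, a relative that drives collagen secretion, was at 2.19 ± 0.615 CPM in model livers (SD, n = 18) and 0.477 ± 0.156 CPM in control livers (SD, n = 6), beside the rise of all 10 stellate cell markers, whose part in it was not tested.

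The PERK arm, which runs through ATF4 and CHOP rather than through chaperone promoters, moved in both directions. Of its 12 genes, Eif2ak3 (PERK), Ddit3 (CHOP), Trib3, Chac1 and Atf3 rose, Atf4, Ppp1r15a, Ppp1r15b and Sesn2 fell, and the median log2 fold change was -0.09. These are 5 higher and 4 lower of 12, where 31.2% of all genes were higher and 28.8% lower. Trib3, a pseudokinase induced by CHOP, lay between 14.6 and 49.3 CPM in model livers, with a median of 19.7 CPM, and between 4.87 and 10.8 CPM in control livers, with a median of 6.5 CPM. The groups did not overlap, which 9.67% of all genes showed in this direction. The log2 fold change of Trib3 was 1.73 (SE 0.25, edgeR adjusted p = 2.03e-06), and it was 1.88 (adjusted p = 0.00167) with the clock index as a covariate and 1.94 (adjusted p = 0.0283) against control 6 alone. Atf3, a stress-induced factor also made by immune cells, averaged 13.0 ± 5.76 CPM in model livers (SD, n = 18) and 2.72 ± 1.41 CPM in control livers (SD, n = 6), a log2 fold change of 2.27 (SE 0.381, edgeR adjusted p = 1.65e-05). With the clock index as a covariate Atf3 did not pass (1.39, adjusted p = 0.0573), nor against control 6 alone (1.44, adjusted p = 0.205). The calls of Ddit3, Eif2ak3 and Chac1 were also lost with the clock index as a covariate (adjusted p = 0.109, 0.0969 and 0.42), as was that of Sesn2 (-0.14, adjusted p = 0.532). Against control 6 alone Sesn2 (-0.06), Atf4 (-0.31), Ddit3 (0.59), Eif2ak3 (0.53) and Chac1 (0.07) did not pass. With library totals alone the falls of Atf4 (0.07), Sesn2 (0.09) and Ppp1r15b (-0.14, edgeR adjusted p = 0.0618) were lost. Ppp1r15a stayed lower there (-0.48), and the 5 genes that rose kept their calls.

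Within the model group, Hspa5 varied from 344 CPM in model mouse 10 to 735 CPM in model mouse 18, and 17 of the other 34 genes varied with it. The widest gap between neighbouring mice was that from 500.3 to 569.8 CPM, so the mice did not form clearly separate clusters. Correlations of log2 CPM were taken over the 18 model mice, with two-sided permutation p-values adjusted within the 34 relations, of 104 relations computed in all. All 17 were positive, with r of at least 0.61, which 1.21% of all 17455 other genes tested reached with Hspa5 in the same mice. The median r of the 34 was 0.56, against 0.02 over those genes. Sdf2l1 followed Hspa5 most closely (r = 0.94, rho = 0.88, permutation p = 0.00001, the smallest that 100000 resamples can give, adjusted p = 6.8e-05). Next were Creld2 (r = 0.91, rho = 0.91) and Manf (r = 0.86, rho = 0.80), each with the same adjusted p for r. Without model mice 3 and 10, which lay farthest from the median of Hspa5, r was 0.93 for Sdf2l1, 0.92 for Creld2 and 0.91 for Manf. Manf and Pdia4 (r = 0.83, adjusted p = 6.8e-05), which did not pass the test between the groups, were thus among the genes that tracked Hspa5 from mouse to mouse.

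**Figure D4:**
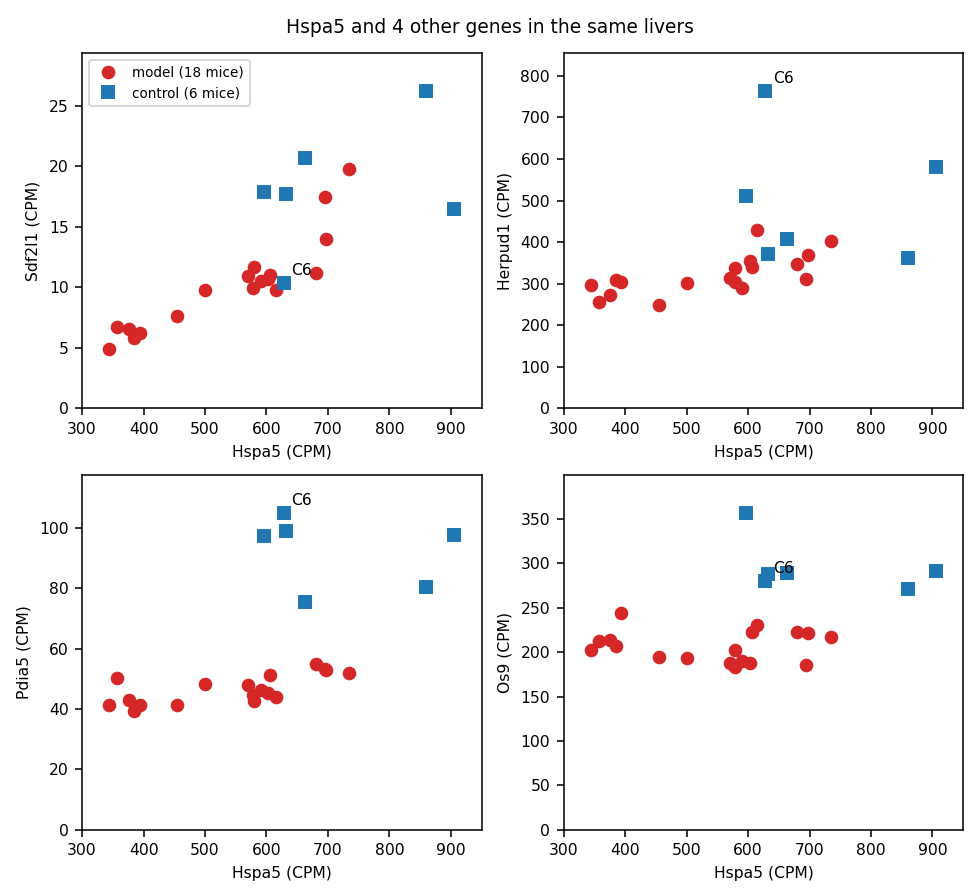
Level of Sdf2l1, Herpud1, Pdia5 and Os9 (vertical axes, CPM) against that of Hspa5 (horizontal axes, CPM) in each model mouse and each control mouse, with control 6 marked. Sdf2l1 climbs with Hspa5 across model mice, whereas Os9 stays between 183 and 244 CPM in model mice at any level of Hspa5 and lies above that in all control mice.

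The genes with the steadiest decreases between the groups differed in how closely they followed Hspa5. Among the 5 genes lower in every setting, Os9 had r = -0.12 with Hspa5 (adjusted p = 0.674), Sel1l r = 0.28 (adjusted p = 0.333), Dnajc3 r = 0.61 (adjusted p = 0.0114), Pdia5 r = 0.66 (adjusted p = 0.0106) and Herpud1 r = 0.69 (adjusted p = 0.00384), all by permutation. Dnajc3, Pdia5 and Herpud1 were thus among the 17 genes past the threshold, and Sel1l and Os9 were not. Sdf2l1, which followed Hspa5 most closely, had a log2 fold change of -0.01 against control 6 alone. Hyou1 (r = 0.85) and Dnajb11 (r = 0.83) kept their calls with the clock index as a covariate and with library totals alone. The sensors were looser, with r = 0.45 for Xbp1, 0.47 for Atf6 and 0.39 for Ern1, none past the threshold (adjusted p = 0.0971, 0.083 and 0.151 by permutation). These correlations share libraries and scaling, and fold changes and correlations of a gene come from the same model libraries.

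By promoter element, the correlation with Hspa5 had a median of 0.74 over the other 8 genes with an ERSE, with a range of 0.50 to 0.91. Dnajb11 and Herpud1, with an ERSE-II, had r = 0.83 and 0.69. The 17 genes with a window and no match had a median of 0.39, with a range of -0.12 to 0.94, and Sdf2l1 itself was among them. For the 7 genes with no window in the table the median was 0.47. Between the groups, 8 of the 9 ERSE genes fell, with a median log2 fold change of -0.47, and 9 of the 17 genes with no match fell, with a median of -0.32. Of all genes tested 28.8% were lower and 31.2% higher. Outside the genes chosen here, 11 genes with an ERSE were tested, of which 1 fell and 5 rose, with a median of 0.22. For the ERSE-II, 7 such genes were tested, of which 3 fell and 1 rose, with a median of -0.07. Most of the 11 other genes with an ERSE thus did not fall, and whether these few genes differ from all genes was not tested. The classes are a description, and no test was made of them.

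**Figure D5:**
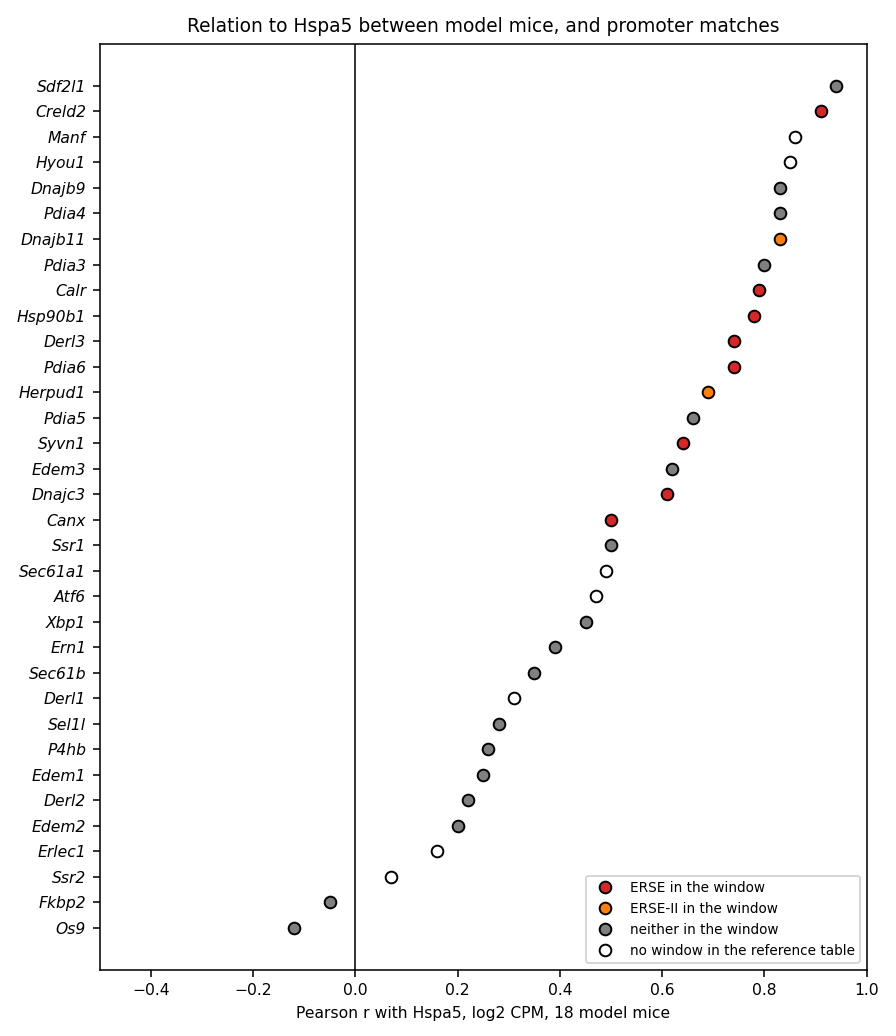
Pearson r of each of the other 34 genes with Hspa5 over the 18 model mice (log2 CPM), ordered by r and coloured by the element found in the promoter window. Genes with an ERSE or ERSE-II sit between 0.50 and 0.91, and genes with no match spread from -0.12 for Os9 to 0.94 for Sdf2l1.

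Neither the clock index nor the macrophage markers tracked the 35 genes within the model group beyond the threshold. With the clock index, 0 of 35 relations passed by permutation, with a median r of 0.02 and a range from -0.40 for Sec61b to 0.43 for Edem3. The index covered only -3.84 to -2.75 there, a narrow part of its range over all 24 mice. With the mean log2 CPM of the 10 macrophage markers, 0 of 35 passed, with a median r of 0.21, from -0.50 for Os9 to 0.50 for Manf. An r that misses the threshold over 18 mice does not show that the measures are unrelated.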

How the data were processed

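Liver RNA of 24 mice was sequenced. Per the labels' protocols it was extracted with Trizol, captured on oligo(dT) beads and sequenced as DNA nanoballs. As deposited, the table gives raw counts for each Ensembl gene ID and, per the file headers, exon positions and a summed exon length, used here for levels per kilobase. Per the submitters' processing notes the build was GRCm39; for the aligner, annotation and strand setting, the sources used here name nothing. Exons of 17 of the 35 genes overlap another gene, in 4 cases over more than 10% of their length (Hsp90b1, P4hb, Syvn1 and Ssr2), and reads there cannot be told apart. Symbols came from a reference table (51498 IDs matched, with 99.6% of counts). Where 58 symbols were shared, the ID with the most counts was used. Libraries of a group differed beyond sampling noise in all 168 pairs (chi-square of at least 19.1 per degree of freedom). No library was thus the same library sequenced again. A second library from the same mouse could differ as much, so the comparison cannot exclude that.

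Groups came from the labels, which number the libraries within each group, and each library was taken as 1 mouse. The p-values measure the spread between these libraries. The main test was edgeR 4.0.16 (R 4.3.3; quasi-likelihood, robust, TMM factors, default expression filter), with Benjamini-Hochberg adjustment over all genes tested. SE was taken from the fold change and F (log2 fold change over root F), and CPM uses TMM-scaled totals. The test was run on simulated counts in which few genes changed, as many up as down. That run does not cover the scaling between groups that differ as widely as these. Also tried were library totals, RLE and upper-quartile factors, DESeq2 1.42.0, limma-voom (limma 3.58.1), no filter, 1 CPM in 6 libraries, a threshold of 0.01, the clock index, the replicate number as a block, each library left out and, chosen after the data were seen, control 6 as the only control and the mice numbered 1 to 6 with no block. Correlations used log2 CPM (prior count 2, or 0.5 as an alternative) and 100000 resamples in Python 3.11.15 with scipy 1.17.1.

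The members and lists were chosen with earlier results of these data known. In each role the 2 called genes with the largest change, and Hspa5, Xbp1, Ern1 and Atf6, have full statistics. Other examples were named from their list. Older symbols in the table (Ero1l, Ero1lb, March6, Srpr, Trf, Arntl) were matched as synonyms.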

Additional observations from a re-analysis of the deposited data

Results flagged for a closer look

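Among the 6 control mice, control 5 stood apart from the others for 3 of the 35 genes, with a gap to the next value that took more than 0.625 of the range. Control 5 had 202 CPM of Derl1, against 163 CPM in the next control. It had 357 CPM of Os9, against 291 CPM in the next control, and 110.5 CPM of Ssr2, against 93.4 CPM in the next control. Chance alone flags about 1 in 20 such groups, and these values share 1 library. Without control 5, Os9 and Ssr2 were still called lower in model livers, and Derl1 was not (log2 fold change -0.10, edgeR adjusted p = 0.197).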

How the results depend on the processing

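Counts of the 35 genes called lower ranged from 20 to 28 when each library was left out, and 0 were called higher in any of those fits; over all genes the ranges were 5198 to 5474 higher and 4787 to 5156 lower, and over the further pathway genes 8 to 9 higher and 55 to 66 lower. With library totals alone the calls were 7 higher and 9 lower for the 35 genes, 9404 higher and 1564 lower for all genes, and 26 higher and 19 lower for the further pathway genes. Against control 6 alone they were 9 lower, 2589 higher and 1899 lower, and 3 higher and 31 lower in the same order. Adjusting for the clock index, 13 of the 35 genes and 3191 of all genes were lower and 3 further pathway genes higher. Fold changes turned positive with library totals alone for Hsp90b1 (0.06), Calr (0.05), Fkbp2 (0.24), Pdia3 (0.01), P4hb (0.18), Edem1 (0.27), Edem3 (0.01), Derl1 (0.18), Derl2 (0.18), Erlec1 (0.02), Ssr1 (0.25), Xbp1 (0.25) and Atf6 (0.01), and, called under neither scaling, for Pdia4 (0.19) and Sec61b (0.25). Against control 6 alone Calr (0.10), Pdia4 (0.41), Derl3 (0.34) and Xbp1 (0.07) lay above 0, and with the clock index Calr was at 0.00 and Pdia4 at 0.23. With library totals alone 2 of the 35 genes correlated with the macrophage markers, against 0 with TMM. RLE factors gave 26 lower, upper-quartile factors 19, DESeq2 27, limma-voom 24, no filter 21, the 1 CPM filter 22 and the threshold of 0.01 gave 19; in all of these 0 were higher. The cause of these differences was not tested beyond what the settings themselves change.

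Same-numbered mice did not deviate together (correlations from -0.293 to 0.067). The numbers thus gave no sign of pairing the mice, although so few pairs cannot exclude it. With the replicate number as a block over the 12 mice numbered 1 to 6, 26 of the 35 genes were lower, as they were in those mice with no block; over all genes 3892 were higher and 3459 lower with the block, and 4128 and 3987 without it.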
